A study of Canis lupus familiaris with 6 samples.

Results

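CMM12 and CMM2 are canine melanoma cell lines, and the account below compares the transcriptomes of the lines with each other. The comparison set the 3 CMM12 libraries against the 3 CMM2 libraries and took every gene with at least 10 counts in 1 or more libraries, which kept 12320 of the 30951 genes listed (39.8%). In each line, 1 library came from control cells with the wild-type genotype, and 1 library each came from podoplanin KO #1 and podoplanin KO #2, cells in which the podoplanin gene had been knocked out. All 6 libraries were made from total RNA of cultured cells, and the sources used here do not say whether the KO cells are single clones. Each line is 1 source of cells, so the 3 libraries of a line are its control and its derivatives and not independent tumours. The p-values therefore measure the line difference against the spread among these libraries, which may be partly technical, and say nothing of other melanomas.

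Melanocytes arise from the neural crest, and their pigment programme is driven by the transcription factors MITF, SOX10 and PAX3, which turn on the tyrosinase family and the structural proteins of the melanosome. Melanoma cells in culture can keep that programme or lose it and take on invasive, mesenchymal features, with receptor kinases, matrix proteins and proteases in place of pigment genes. Growth in melanoma commonly runs through the RAS-RAF-ERK and PI3K-AKT routes.

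Library totals lay between 9732927 and 11807835 estimated counts. In all sentences below, values per library are CPM, the counts scaled to library size with a composition factor, given in the order control, KO 1, KO 2, and a log2 difference is CMM12 minus CMM2 with genotype in the model. Of the 12320 genes tested, edgeR's quasi-likelihood test called 1790 higher in CMM12 (14.5%) and 1382 lower (11.2%) at a Benjamini-Hochberg adjusted p under 0.05. Differences of at least 2 on the log2 scale were uneven, with 772 called genes higher in CMM12 (6.27%) and 206 lower (1.67%). Many of these genes were read in 1 line only. Of the 772, 526 reached 10 counts in CMM12 libraries alone, and 99 of the 206 reached it in CMM2 libraries alone, so they entered the test through the line in which they were high. Gene lists are therefore given over their tested members and, where members fell out, over those read in both lines, which means at least 10 counts in 1 or more libraries of each line, a split added after the data were seen. Of the 10925 genes read in both lines, 11.6% were called higher in CMM12 and 11.7% lower. The shares of a list are to be read against these values or against 14.5% and 11.2% of all tested genes. Every library of one line lay above every library of the other for 3118 of the 3172 called genes and for 5660 of all tested genes (45.9%). In a principal component analysis of the genes with a mean of at least 10 CPM, the first component held 71% of the variance and the second 12.3%. Among 8660 genes with a mean of at least 10 CPM, 15% to 17.9% differed at least 2-fold in the 9 pairs of libraries from different lines, against 0.889% to 6.39% in the 6 pairs from the same line. The median log2 difference over all tested genes was 0.04. On the deposited TPM values, tested with limma on log2(TPM + 1), 68.2% of called genes were higher in CMM12 against 56.4% by counts, with a median shift of 0.11 over all genes. Without 1 library, the count of called genes was 1682 without the CMM2 control, 1498 without CMM2 KO 1, 3080 without CMM2 KO 2, 1690 without the CMM12 control, 2115 without CMM12 KO 1 and 1678 without CMM12 KO 2. Without either control, the genotype term absorbs the control that is left, so the line difference rests on the KO libraries alone. The fits without the CMM2 control and without the CMM12 control therefore give nearly the same log2 differences and are not separate checks. The calls made in all 6 of these fits numbered 1151, and the genes given with values below are among them unless a lost call is named. Where leaving out 1 library moved a called log2 difference by more than 1.5-fold, the value without it follows.

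**Figure D1:**
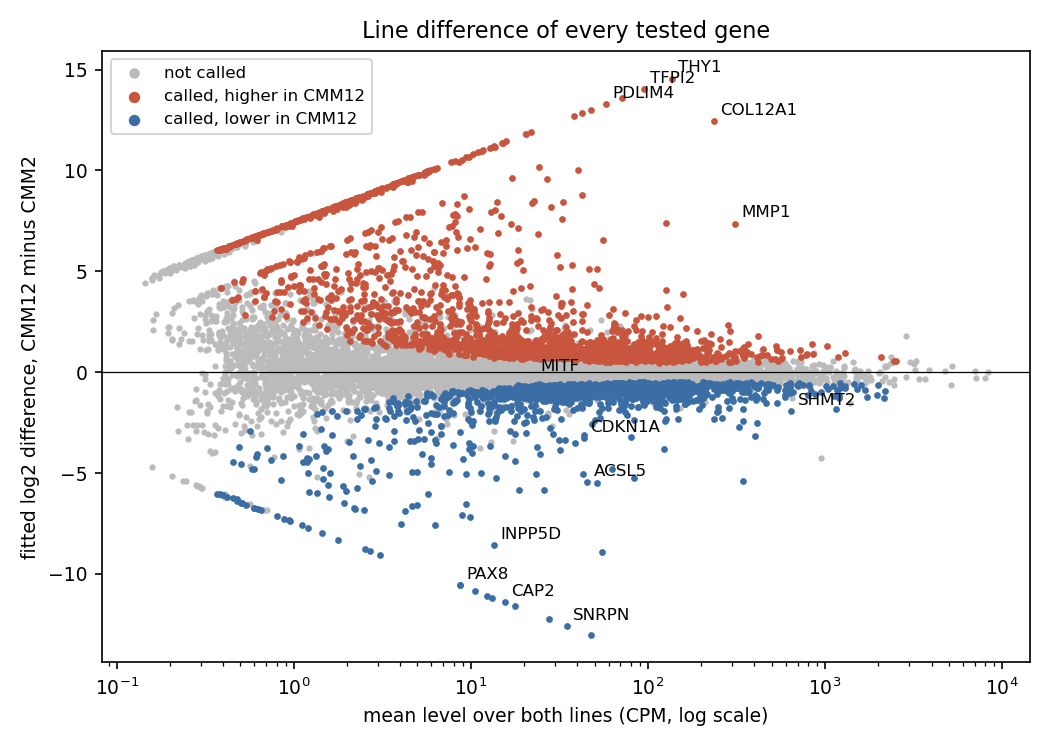
Fitted log2 difference between the lines (CMM12 minus CMM2, vertical axis) against the mean level over both lines (CPM, log scale, horizontal axis) for the 12320 tested genes, coloured by call. The straight upper and lower edges are genes at 0 counts in one line, whose fitted size depends on the prior count; 1790 genes were called higher in CMM12 and 1382 lower.

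The targeted gene checks the labels. PDPN, the membrane glycoprotein podoplanin, stood at 20.2, 5.59 and 5.58 CPM in CMM2 and 87.8, 15.2 and 9.99 CPM in CMM12. In both lines the control was above both KO libraries. The lines overlapped, as the CMM2 control lay above both CMM12 KO libraries. Between lines PDPN was higher in CMM12 (log2 difference 1.51, SE 0.29, edgeR adjusted p 0.00959), and the edgeR adjusted p was 0.0517 without the CMM2 control and 0.0672 without the CMM12 control. The line difference was also set against genotype: edgeR called 0 genes (0%) for a difference between the KO libraries and the controls in the size of the CMM12-CMM2 contrast, with 471 genes at an unadjusted p under 0.05. DESeq2 called 22 for the same difference and limma on log2(TPM + 1) called 0. Each line had 1 control, so the spread came from the KO pairs and each lone control was assumed to vary like them. The 0 calls therefore do not show that the line difference is alike in both genotypes.

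Most of the defining transcripts of the pigment programme were at or near 0 in both lines. MLANA, TYR and DCT, which encode the melan-A antigen, tyrosinase and dopachrome tautomerase, and the transcription factor gene SOX10 had at most 1 count in every library of both lines. PMEL, the melanosome fibril protein, had 5 to 8 counts in CMM2 libraries and 7 to 27 counts in CMM12 libraries. MITF itself was read in both, at 21.2, 24.1 and 27.9 CPM in CMM2 and 28.4, 15.4 and 20.1 CPM in CMM12. The MITF ranges of the lines overlapped, and the log2 difference of −0.23 (SE 0.26) was not called. Of the 7 melanocyte markers, 4 had at most 3 counts in every library, and the 7 summed to 21.9 to 28.7 CPM in CMM2 and 20.4 to 33.1 CPM in CMM12, most of it MITF.

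Markers of other cell types gave the following levels. The fibroblast markers summed to 1228 to 6236 CPM in CMM2 and 2930 to 6016 CPM in CMM12, and all 5 had more than 3 counts in at least 1 library. That sum was mostly type I collagen. COL1A1 stood at 1008, 1689 and 2219 CPM in CMM2 and 679.5, 5.56 and 73.4 CPM in CMM12, and COL1A2 at 156, 870.4 and 3897 CPM in CMM2 and 5286, 2879 and 4208 CPM in CMM12. Every CMM2 library was above every CMM12 library for COL1A1, the lines overlapped for COL1A2, and neither difference was called. PDGFRA, the receptor for platelet-derived growth factor that marks fibroblasts, was lower in CMM12 (log2 difference −1.06, SE 0.24, edgeR adjusted p 0.0183), and the edgeR adjusted p was 0.0780 without the CMM2 control, 0.0735 without the CMM12 control and 0.0515 without CMM12 KO 1. DCN, the matrix proteoglycan decorin, was called the other way at 0, 0 and 0.189 CPM in CMM2 and 3.88, 8.93 and 0 CPM in CMM12 (edgeR adjusted p 0.0493), although it was at 0 in CMM12 KO 2, and for DCN the edgeR adjusted p was 0.147 without the CMM2 control, 0.158 without CMM2 KO 1, 0.0877 without CMM2 KO 2, 0.147 without the CMM12 control and 0.344 without CMM12 KO 1. DESeq2 did not call DCN (DESeq2 adjusted p 0.161). LUM, the proteoglycan lumican, stood at 0, 0.0874 and 1.04 CPM in CMM2 and 16.9, 0.456 and 0 CPM in CMM12 and was not called. The epithelial markers summed to 0 CPM in CMM2 and 4.41 to 24.3 CPM in CMM12, and KRT5 was not among the annotated genes. Of the leukocyte markers, PTPRC, CD3E and MS4A1 were at 0 in every library, and the 5 markers summed to at most 5.97 CPM. The 4 muscle markers summed to 49.2 to 52.9 CPM in CMM2 and 31.03 to 39.96 CPM in CMM12. Nearly all of that was MYH11, a smooth muscle myosin, while the skeletal muscle factors MYOD1 and MYOG were at 0 in every library. Endothelial markers summed to 8.61 to 15.4 CPM in CMM2 and 6.29 to 10.9 CPM in CMM12. In CMM2 this was nearly all VWF, at 10.9, 15.4 and 8.33 CPM, against 1.90, 4.92 and 7.15 CPM in CMM12. KDR went the other way, at 0 counts in every CMM2 library and 8.03, 0.365 and 1.86 CPM in CMM12. Neither VWF nor KDR was called in all 6 fits that left out 1 library. In bulk RNA, a smaller share of cells that express a gene and less RNA per cell cannot be told apart.

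A few pigment and neural crest regulators nevertheless separated the lines. TYRP1, the tyrosinase-related enzyme of eumelanin synthesis, had 0 counts in every CMM2 library and 3.71, 4.29 and 6.07 CPM in CMM12. RAB38, a small GTPase that carries cargo to melanosomes, had 0 counts in every CMM2 library and 13.03, 6.29 and 6.27 CPM in CMM12. BACE2, a protease that processes the melanosome fibril protein, had 0 counts in every CMM2 library and 40.7, 23.98 and 26.3 CPM in CMM12. All 3 were read in every CMM12 library and in no CMM2 library. At a floor of 3 counts per library they were at least 12.95-fold, at least 21.9-fold and at least 83.7-fold higher in CMM12, with edgeR adjusted p of 0.00366, 0.00172 and 4.1e-04. PAX3, the paired-box factor that activates MITF, stood at 0, 0 and 0.568 CPM in CMM2 and 3.71, 8.39 and 4.70 CPM in CMM12. Only CMM2 KO 2 among the CMM2 libraries had PAX3 counts, and PAX3 was higher in CMM12 (log2 difference 4.95, SE 0.99, edgeR adjusted p 0.0116, and a difference of 4.29 without CMM2 KO 1 and 8.83 without CMM2 KO 2). Over the list of melanosome and pigment genes, 3 of 22 tested members were higher in CMM12 and 2 were lower, shares of 13.6% and 9.1% beside 14.5% and 11.2% of all genes, with a median difference of 0.0, with 0 higher and 2 lower among the 15 read in both lines (0% and 13.3%, median −0.38).

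Of 9 tested melanocyte regulators, 3 were higher in CMM12 and 2 lower (33.3% and 22.2%, median 0.77), with 2 higher and 2 lower among the 6 read in both lines (33.3% and 33.3%, median 0.06). Beside PAX3, the higher ones were TFAP2A, a neural crest factor (log2 difference 0.81, SE 0.24, edgeR adjusted p 0.0436), and ZEB2, a zinc-finger repressor (log2 difference 0.77, SE 0.17, edgeR adjusted p 0.0150). SNAI2, a repressor active in neural crest migration, was lower (log2 difference −1.23, SE 0.26, edgeR adjusted p 0.0135), as was KITLG, the ligand of the receptor KIT (log2 difference −0.99, SE 0.29, edgeR adjusted p 0.0425). Each of these 4 calls was lost without at least 1 library. For TFAP2A the edgeR adjusted p was 0.188 without the CMM2 control, 0.119 without CMM2 KO 1, 0.187 without the CMM12 control and 0.135 without CMM12 KO 1. For ZEB2 the edgeR adjusted p was 0.0673 without the CMM2 control, 0.0588 without CMM2 KO 1, 0.0653 without the CMM12 control and 0.0534 without CMM12 KO 1. For SNAI2 the edgeR adjusted p was 0.0590 without CMM12 KO 2, and for KITLG the edgeR adjusted p was 0.190 without the CMM2 control, 0.178 without CMM2 KO 1, 0.181 without the CMM12 control and 0.128 without CMM12 KO 2.

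**Figure D2:**
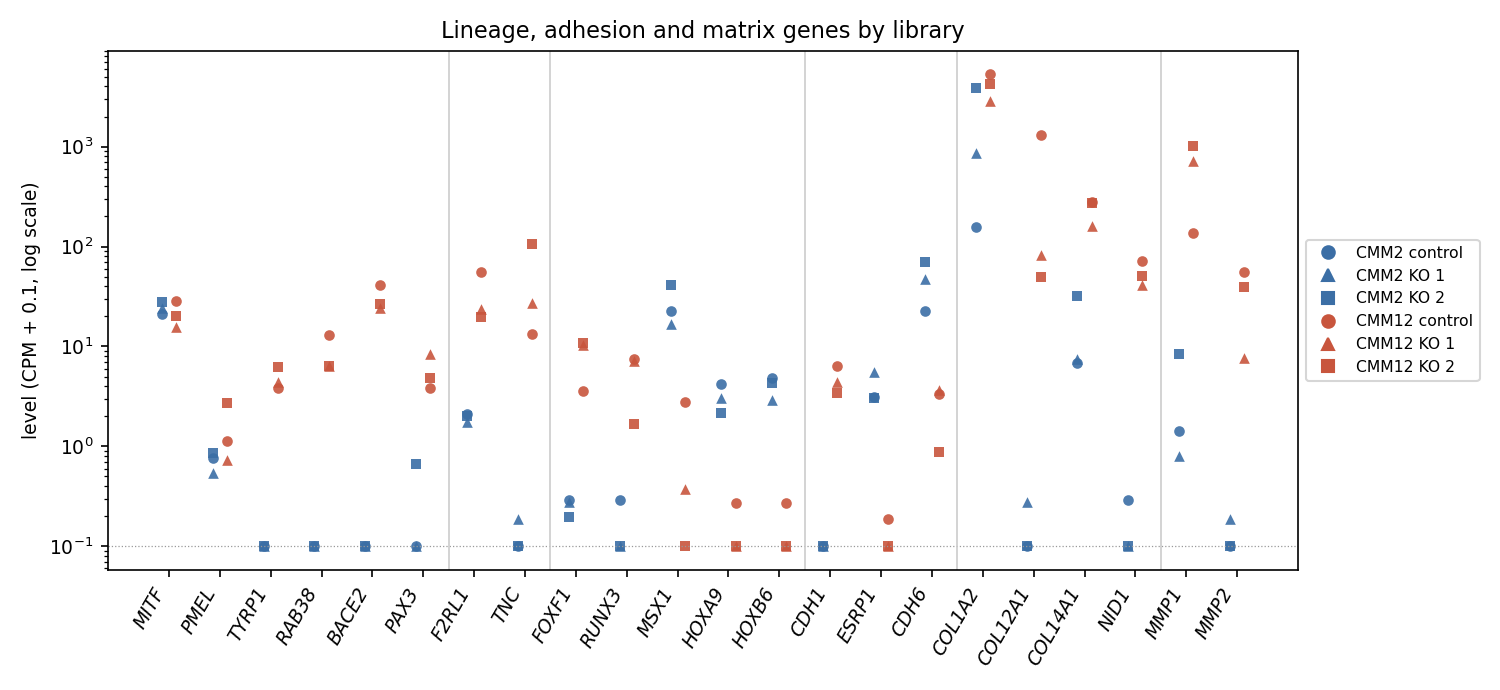
Level in each library (CPM + 0.1, log scale, vertical axis) of lineage, adhesion and matrix genes; colour gives the line and symbol the control, KO 1 and KO 2, and the dotted line marks 0 counts. MITF overlaps between lines, while TYRP1, RAB38, BACE2 and CDH1 are at 0 in every CMM2 library and read in every CMM12 library.

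Genes tied to the invasive, MITF-low state of melanoma were called mostly toward CMM12. Of 24 tested members, 11 were higher in CMM12 and 1 was lower, 45.8% and 4.2%, with a median of 0.67 and of 0.40 once genes at 0 in a line are set to their bound, with 7 higher and 1 lower among the 19 read in both lines (36.8% and 5.3%, median 0.32). F2RL1, a protease-activated receptor, stood at 2.01, 1.66 and 1.89 CPM in CMM2 and 55.7, 23.3 and 19.8 CPM in CMM12. Its lowest CMM12 library was far above its highest CMM2 library (log2 difference 4.0, SE 0.32, edgeR adjusted p 5.7e-04). TNC, the matrix protein tenascin-C, stood at 0, 0.0874 and 0 CPM in CMM2 and 13.1, 27.1 and 106 CPM in CMM12, a CMM12 to CMM2 ratio of 1520 (95% interval 272 to 60065, edgeR adjusted p 8.7e-04, and a ratio of 647 without CMM12 KO 2). Ratios of this kind are given for genes with 1 to 3 counts over the libraries of the lower line, and their 95% counting intervals cover counting error only. A value without a library follows where it moves the ratio by more than 1.5-fold, and no ratio is formed where the lower line is left with 0 counts. The single count in CMM2 came from KO 1. AXL, the receptor kinase most used to define this state, was the member that went the other way, at 956, 975 and 627 CPM in CMM2 and 406, 457 and 399.8 CPM in CMM12. It was lower in every CMM12 library (log2 difference −1.01, SE 0.21, edgeR adjusted p 0.0128), and the edgeR adjusted p was 0.0716 without the CMM2 control, 0.0646 without CMM2 KO 1, 0.0685 without the CMM12 control and 0.0557 without CMM12 KO 2. EGFR, the epidermal growth factor receptor, did not differ by call (log2 0.32, SE 0.27).

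Transcription factors of the neural crest and mesenchyme and the HOX genes, which encode position along the body axis, differed in both directions. Of 32 tested crest and mesenchymal factors, 9 were higher in CMM12 and 3 lower (28.1% and 9.4%, median 0.60), with 4 higher and 1 lower among the 21 read in both lines (19% and 4.8%, median 0.51). FOXF1, a forkhead factor of mesenchyme, stood at 0.191, 0.175 and 0.0946 CPM in CMM2 and 3.45, 10.3 and 10.8 CPM in CMM12, and every CMM12 library was above every CMM2 library (log2 difference 5.52, SE 0.58, edgeR adjusted p 0.00146, and a difference of 6.16 without the CMM2 control and 6.16 without the CMM12 control). RUNX3, a runt-domain factor, stood at 0.191, 0 and 0 CPM in CMM2 and 7.42, 7.02 and 1.57 CPM in CMM12, a CMM12 to CMM2 ratio of 88.7 (95% interval 24.2 to 738, edgeR adjusted p 0.00573, and a ratio of 57.5 without CMM2 KO 1). In the other direction MSX1, a homeobox factor of crest-derived tissue, stood at 22.4, 16.7 and 41.3 CPM in CMM2 and 2.68, 0.274 and 0 CPM in CMM12. It was at 0 in CMM12 KO 2 and highest in CMM2 KO 2 (log2 difference −5.22, SE 0.96, edgeR adjusted p 0.00899, and a difference of −7.57 without the CMM2 control, −7.57 without the CMM12 control and −4.47 without CMM12 KO 2). Of 16 tested HOX genes, 6 were lower in CMM12 and 1 was higher, 37.5% and 6.2%, with a median of −0.94 and of −0.55 with genes at 0 set to their bound, with 1 higher and 2 lower among the 10 read in both lines (10% and 20%, median −0.13). HOXA9 stood at 4.11, 2.97 and 2.08 CPM in CMM2 and 0.173, 0 and 0 CPM in CMM12, and HOXB6 at 4.68, 2.80 and 4.16 CPM in CMM2 and 0.173, 0 and 0 CPM in CMM12. In CMM12 the only counts of either gene were in the control. The ratio of CMM2 to CMM12 was 49.9 (95% interval 13.5 to 418, edgeR adjusted p 0.00558, and a ratio of 33.2 without CMM12 KO 1) for HOXA9. The ratio of CMM2 to CMM12 was 63.05 (95% interval 17.1 to 526, edgeR adjusted p 0.00418, and a ratio of 41.9 without CMM12 KO 1) for HOXB6. HOXA5, the member that was higher in CMM12, lay at 0.573, 1.31 and 1.23 CPM in CMM2 and 2.33, 4.92 and 3.92 CPM in CMM12 (log2 difference 1.85, SE 0.44, edgeR adjusted p 0.0215), and the edgeR adjusted p was 0.0761 without the CMM2 control, 0.0775 without CMM2 KO 1, 0.0813 without the CMM12 control, 0.0729 without CMM12 KO 1 and 0.0535 without CMM12 KO 2.

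Some genes were read in 1 line alone. At 10 CPM or more in every library of one line and at most 3 counts in every library of the other, 33 genes marked CMM12 (29 with a symbol) and 13 marked CMM2 (8 with a symbol). THY1 (ENSCAFG00000029265), the glycosylphosphatidylinositol-anchored surface protein of fibroblasts and neurons, had 0 counts in every CMM2 library and 166, 207 and 450.2 CPM in CMM12 and was at least 581-fold higher. TFPI2 (ENSCAFG00000002040), a secreted Kunitz-type protease inhibitor, had 0 counts in every CMM2 library and 134, 305 and 130.4 CPM in CMM12 and was at least 455-fold higher. PDLIM4 (ENSCAFG00000000830), a PDZ-LIM protein of actin fibres, had 0 counts in every CMM2 library and 118, 98.8 and 131 CPM in CMM12 and was at least 345-fold higher. None of the CMM2 libraries held a count of these 3 genes. TUBA4A, an alpha-tubulin, and CEP72, a centrosomal protein, were likewise at 0 in CMM2, and were at least 282-fold and at least 216-fold higher in CMM12. SPINT1 and SPINT2, membrane-bound Kunitz inhibitors of the proteases that activate hepatocyte growth factor, were both read only in CMM12. SPINT1 had 0 counts in every CMM2 library and 31.8, 43.5 and 47.9 CPM in CMM12, and SPINT2 had 0 counts in every CMM2 library and 38.4, 17.8 and 25.4 CPM in CMM12. ACOD1, which makes itaconate from a Krebs cycle intermediate, had 0 counts in every CMM2 library and 62.7, 40.02 and 28.7 CPM in CMM12, and SLC2A5, the fructose transporter, had 0 counts in every CMM2 library and 23.5, 40.8 and 26.2 CPM in CMM12. ACOD1 was at least 100.1-fold and SLC2A5 at least 81.9-fold higher. Alpha-tubulin genes are near-identical in sequence, so the TUBA4A value is uncertain where reads could be split between copies.

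Genes read in CMM2 alone were fewer. SNRPN (ENSCAFG00000010127), a small nuclear ribonucleoprotein gene of an imprinted locus, had 66.7, 68.3 and 74.5 CPM in CMM2 and 0 counts in every CMM12 library and was at least 227-fold lower in CMM12. CAP2 (ENSCAFG00000009977), a cyclase-associated protein that binds actin, had 28.9, 32.8 and 31.3 CPM in CMM2 and 0 counts in every CMM12 library and was at least 98.5-fold lower. PREX2, an exchange factor for RAC, had 27.3, 29.2 and 17.98 CPM in CMM2 and 0 counts in every CMM12 library and was at least 61.2-fold lower. The CMM2 libraries were close together for SNRPN and CAP2, and CMM12 held no count of any of the 3. PAX8, a paired-box factor of thyroid and kidney, had 12.6, 17.5 and 22.2 CPM in CMM2 and 0 counts in every CMM12 library and was at least 42.9-fold lower. KBTBD6, an adaptor of a ubiquitin ligase, had 15.7, 17.2 and 19.6 CPM in CMM2 and 0 counts in every CMM12 library and was at least 53.3-fold lower. PTPRG, a receptor tyrosine phosphatase, had 1 or 2 counts in each CMM12 library and stood at 23.02, 20.8 and 15.2 CPM in CMM2 and 0.0863, 0.0912 and 0.196 CPM in CMM12 (log2 difference −7.20, SE 0.43, edgeR adjusted p 2.6e-04).

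Among 23 tested epithelial and adhesion genes, 9 were higher in CMM12 and 4 lower (39.1% and 17.4%), with a median of 1.87 and of 1.42 with genes at 0 set to their bound, with 4 higher and 3 lower among the 13 read in both lines (30.8% and 23.1%, median 0.22). The list held 40 genes, of which 77.5% were annotated. CDH1, the epithelial adhesion protein E-cadherin, had 0 counts in every CMM2 library and 6.30, 4.29 and 3.33 CPM in CMM12. It was at least 11.6-fold higher in CMM12. CDH2, the mesenchymal N-cadherin, stood at 320.4, 317 and 152 CPM in CMM2 and 232, 301 and 262 CPM in CMM12 and was not called (log2 0.02, SE 0.29). The lines thus shared N-cadherin transcripts at overlapping levels and differed in E-cadherin transcripts, which were at a low level in CMM12. CDH6, a cadherin of kidney and neural crest, stood at 22.5, 46.8 and 70.1 CPM in CMM2 and 3.28, 3.56 and 0.783 CPM in CMM12 (log2 difference −4.07, SE 0.60, edgeR adjusted p 0.00426, and a difference of −4.73 without the CMM2 control, −4.73 without the CMM12 control and −3.48 without CMM12 KO 2), with every CMM2 library above every CMM12 library. ESRP1, a splicing regulator of epithelial cells, went against E-cadherin, at 3.06, 5.42 and 2.93 CPM in CMM2 and 0.0863, 0 and 0 CPM in CMM12. The ratio of CMM2 to CMM12 was 126 (95% interval 22.2 to 5020, edgeR adjusted p 0.00367, and a ratio of 83.9 without CMM12 KO 1) for ESRP1. The keratin gene KRT14 was high in the CMM12 control alone, at 0 counts in every CMM2 library and 17.7, 0.0912 and 0.979 CPM in CMM12. It was called higher in CMM12 (edgeR adjusted p 0.0153), and the edgeR adjusted p was 0.118 without the CMM2 control and 0.217 without the CMM12 control.

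More collagens were called higher in CMM12 than lower. Of 21 tested collagen genes, 6 were higher in CMM12 and 2 lower (28.6% and 9.5%, median 0.66), with 5 higher and 2 lower among the 18 read in both lines (27.8% and 11.1%, median 0.61). COL12A1, a collagen that decorates fibrils, stood at 0, 0.175 and 0 CPM in CMM2 and 1293, 81.6 and 49.8 CPM in CMM12, a CMM12 to CMM2 ratio of 8122 (95% interval 2248 to 67068, edgeR adjusted p 2.9e-04, and a ratio of 1077 without the CMM12 control). Its level in the CMM12 control was far above both KO libraries, whose values alone were above every CMM2 library. COL14A1, another fibril-associated collagen, stood at 6.69, 7.42 and 31.6 CPM in CMM2 and 279.96, 161 and 270.1 CPM in CMM12 (log2 difference 4.05, SE 0.63, edgeR adjusted p 0.00513, and a difference of 3.47 without the CMM2 control and 5.09 without CMM2 KO 2). COL7A1, the anchoring-fibril collagen, stood at 14.6, 13.1 and 24.9 CPM in CMM2 and 43.8, 81.96 and 94.7 CPM in CMM12 (log2 difference 2.01, SE 0.28, edgeR adjusted p 0.00356). COL4A2, a basement membrane chain, was called the other way at 59.8, 76.96 and 111 CPM in CMM2 and 33.5, 6.47 and 15.1 CPM in CMM12 (log2 difference −2.37, SE 0.54, edgeR adjusted p 0.0187, and a difference of −3.13 without the CMM2 control and −3.12 without the CMM12 control), and the edgeR adjusted p was 0.0587 without CMM2 KO 1 and 0.0875 without CMM12 KO 2. NID1, which links laminin to collagen IV, stood at 0.191, 0 and 0 CPM in CMM2 and 71.2, 40.7 and 50.2 CPM in CMM12, a CMM12 to CMM2 ratio of 884 (95% interval 244 to 7307, edgeR adjusted p 2.6e-04, and a ratio of 573 without CMM2 KO 1). Of 40 tested matrix glycoproteins and proteoglycans, 10 were higher in CMM12 and 4 lower (25% and 10%, median 0.56), with 4 higher and 4 lower among the 31 read in both lines (12.9% and 12.9%, median 0.31).

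Proteases and integrins followed with mixed calls. Of 32 tested proteases and inhibitors, 8 were higher in CMM12 and 4 lower (25% and 12.5%, median 0.17), with 4 higher and 4 lower among the 26 read in both lines (15.4% and 15.4%, median 0.02). MMP1, the interstitial collagenase, stood at 1.34, 0.699 and 8.33 CPM in CMM2 and 135, 717 and 1008 CPM in CMM12. The lowest CMM12 library, its control, was above the highest CMM2 library, KO 2 (log2 difference 7.37, SE 0.76, edgeR adjusted p 0.00135, and a difference of 6.68 without CMM2 KO 1 and 8.66 without CMM2 KO 2). MMP2, a gelatinase, stood at 0, 0.0874 and 0 CPM in CMM2 and 56.1, 7.57 and 38.9 CPM in CMM12, a CMM12 to CMM2 ratio of 1120 (95% interval 201 to 44285, edgeR adjusted p 0.00164, and a ratio of 736 without the CMM12 control). TIMP3, a matrix-bound inhibitor of such proteases, was higher in CMM12 as well, at 0.0955, 0 and 0 CPM in CMM2 and 5.18, 2.74 and 19.3 CPM in CMM12. Its CMM2 libraries held 1 count in all. ADAMTS4, an aggrecanase, stood at 7.93, 5.42 and 11.5 CPM in CMM2 and 57.05, 103 and 43.3 CPM in CMM12 (log2 difference 3.02, SE 0.41, edgeR adjusted p 0.00317). Among 19 tested integrins, 5 were higher and 2 lower (26.3% and 10.5%, median 0.21), with 1 higher and 2 lower among the 13 read in both lines (7.7% and 15.4%, median −0.15). ITGB7, a beta chain best known from lymphocytes, stood at 0.191, 0.0874 and 0.0946 CPM in CMM2 and 23.6, 23.4 and 41.2 CPM in CMM12 (log2 difference 7.76, SE 0.47, edgeR adjusted p 2.6e-04). ITGA2, the alpha chain of a collagen receptor, was lower in CMM12 at 185, 174 and 318 CPM in CMM2 and 76.7, 69.5 and 44.5 CPM in CMM12 (log2 difference −1.83, SE 0.31, edgeR adjusted p 0.00686), and ITGA10, another collagen-receptor chain, was higher (log2 difference 1.95, SE 0.33, edgeR adjusted p 0.00663). The lines did not overlap for any of these 3 integrins.

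**Figure D3:**
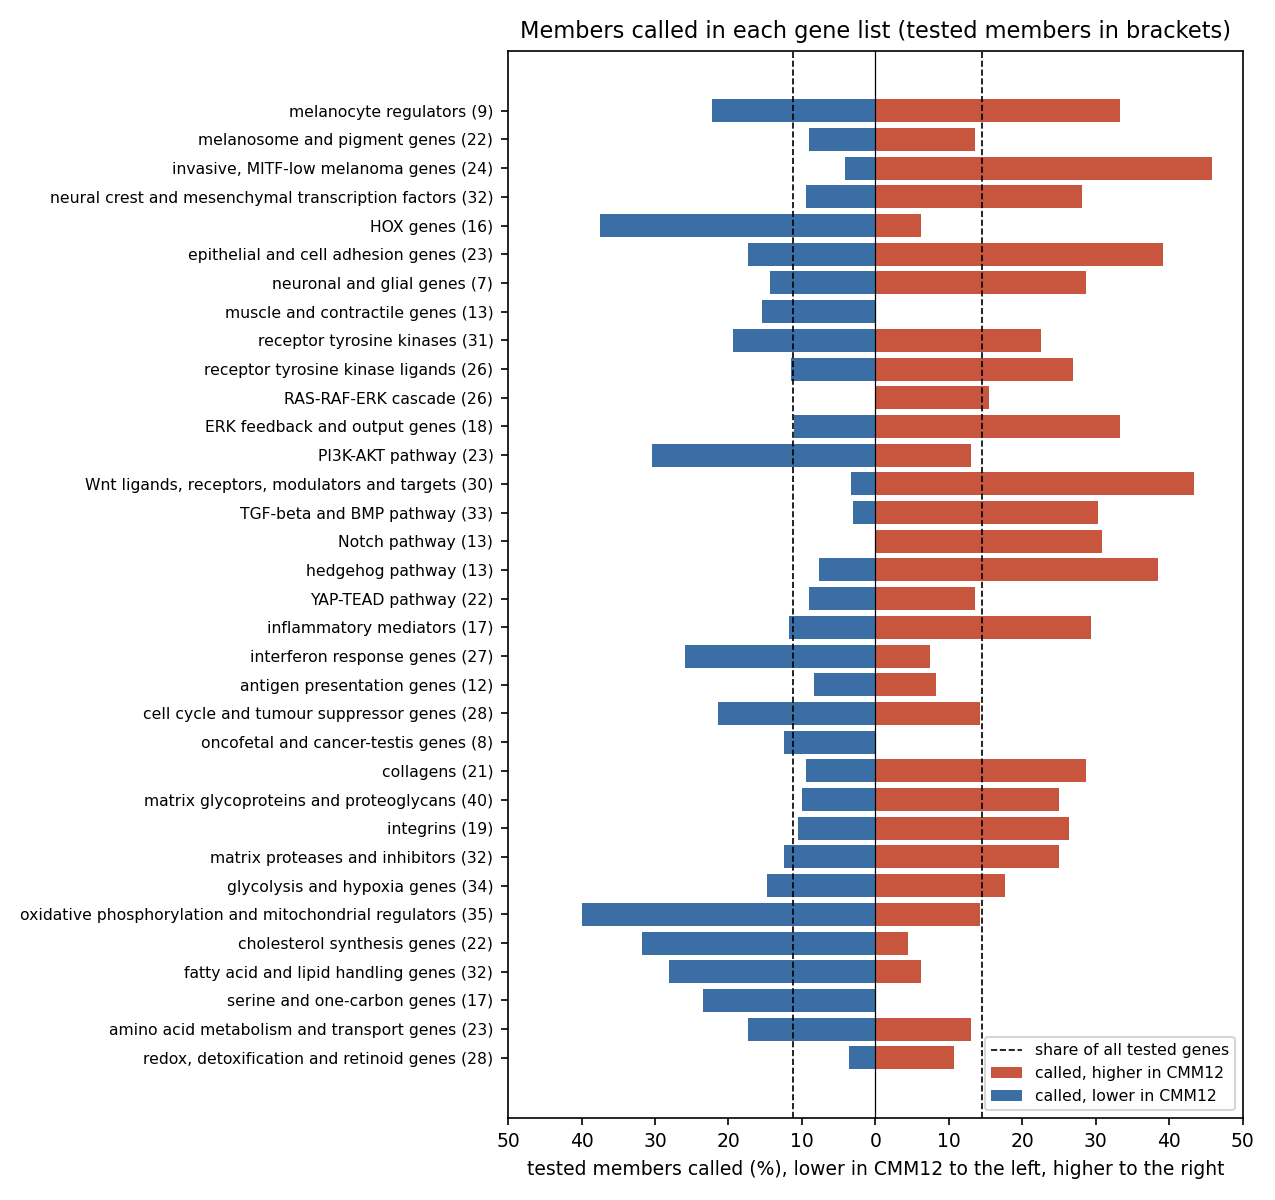
Share of the tested members of each of 34 gene lists (number tested in brackets) that edgeR called lower in CMM12 (left) or higher in CMM12 (right), in percent; dashed lines give the share over all tested genes, 11.2% lower and 14.5% higher. The invasive and Wnt lists reach 45.8% and 43.3% on the higher side, and the oxidative phosphorylation list 40% on the lower side. Some members entered the test through 1 line only. Among members read in both lines, the invasive and Wnt shares were 36.8% and 30%, beside 11.6% of all genes read in both lines.

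Receptor tyrosine kinases and their ligands were called in both directions. Of 31 tested receptors, 7 were higher in CMM12 and 6 lower (22.6% and 19.4%, median 0.37), with 3 higher and 4 lower among the 24 read in both lines (12.5% and 16.7%, median 0.35). Of 26 tested ligands 7 were higher and 3 lower (26.9% and 11.5%, median 0.73), with 7 higher and 3 lower among the 23 read in both lines (30.4% and 13%, median 0.59). MERTK, a receptor for the bridging proteins of dying cells, stood at 0.287, 0 and 0 CPM in CMM2 and 29.6, 11.8 and 7.44 CPM in CMM12, a CMM12 to CMM2 ratio of 181 (95% interval 61.6 to 881, edgeR adjusted p 6.9e-04, and a ratio of 117 without CMM2 KO 1 and 105 without the CMM12 control). FGFR3, a fibroblast growth factor receptor, stood at 1.53, 2.10 and 5.39 CPM in CMM2 and 15.8, 13.9 and 36.1 CPM in CMM12 (log2 difference 2.93, SE 0.50, edgeR adjusted p 0.00680). Both receptors were higher in every CMM12 library. Among ligands, CSF1, the macrophage growth factor, stood at 16.4, 27.3 and 22.7 CPM in CMM2 and 115, 140.2 and 67.5 CPM in CMM12 (log2 difference 2.30, SE 0.31, edgeR adjusted p 0.00321). FGF7, the keratinocyte growth factor, stood at 0, 0 and 1.80 CPM in CMM2 and 20.1, 57.99 and 31.3 CPM in CMM12. Its counts in CMM2 came from KO 2 alone, and FGF7 was higher in CMM12 (log2 difference 6.06, SE 0.93, edgeR adjusted p 0.00469, and a difference of 5.37 without CMM2 KO 1 and 11.49 without CMM2 KO 2). PGF, a ligand of a vascular growth factor receptor, was higher too (log2 difference 3.51, SE 0.46, edgeR adjusted p 0.00279). ANGPT1, the ligand of the endothelial receptor TEK, was lower in CMM12, at 4.49, 8.65 and 22.6 CPM in CMM2 and 1.21, 1.91 and 1.86 CPM in CMM12 (log2 difference −2.68, SE 0.49, edgeR adjusted p 0.00849, and a difference of −2.07 without CMM2 KO 2).

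Downstream of the receptors, the ERK cascade had a share of higher calls close to that of all genes. Of 26 tested cascade genes, 4 were higher in CMM12 and 0 lower, 15.4% and 0% beside 14.5% and 11.2% of all genes (median 0.18). HRAS and NRAS, which encode RAS GTPases, were not called (log2 0.31 and −0.14). Of 18 tested feedback and output genes, 6 were higher and 2 lower (33.3% and 11.1%, median 0.36), and all 18 were read in both lines. SPRED1, an inhibitor of RAS activation, stood at 0.955, 1.40 and 0.852 CPM in CMM2 and 55.2, 23.98 and 36.03 CPM in CMM12 (log2 difference 5.08, SE 0.37, edgeR adjusted p 4.1e-04). ETV5, a transcription factor induced by ERK, stood at 12.04, 10.7 and 17.3 CPM in CMM2 and 26.1, 38.02 and 31.7 CPM in CMM12 (log2 difference 1.25, SE 0.24, edgeR adjusted p 0.0107). Both were higher in every CMM12 library. DUSP6, the phosphatase that acts on ERK, was not called (log2 0.69, SE 0.32).

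In the PI3K-AKT list, more members were lower in CMM12 than higher. Of 23 tested members, 7 were lower in CMM12 and 3 higher (30.4% and 13%, median −0.24), with 2 higher and 5 lower among the 20 read in both lines (10% and 25%, median −0.16). INPP4B and INPP5D, phosphatases that act on phosphoinositides, stood at 4.01, 4.89 and 4.16 CPM in CMM2 and 0, 0.0912 and 0 CPM in CMM12 and at 20.5, 22.1 and 38.8 CPM in CMM2 and 0, 0.182 and 0 CPM in CMM12. The ratio of CMM2 to CMM12 was 143 (95% interval 25.3 to 5697, edgeR adjusted p 0.00231, and a ratio of 92.6 without the CMM12 control) for INPP4B. The ratio of CMM2 to CMM12 was 443 (95% interval 122 to 3662, edgeR adjusted p 4.7e-04, and a ratio of 286 without the CMM12 control) for INPP5D. IRS1, the adaptor that couples insulin receptors to PI3K, was lower as well, at 11.7, 13.1 and 27.2 CPM in CMM2 and 2.93, 2.92 and 3.72 CPM in CMM12 (log2 difference −2.40, SE 0.37, edgeR adjusted p 0.00467). PIK3CA, a catalytic subunit of PI3K, was not called (log2 1.34, SE 0.49). DEPTOR, an inhibitor of the mTOR kinase, was higher in CMM12 (log2 difference 3.60, SE 0.69, edgeR adjusted p 0.0103, and a difference of 4.27 without CMM2 KO 2), and the edgeR adjusted p was 0.0503 without the CMM2 control and 0.0547 without the CMM12 control.

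**Figure D4:**
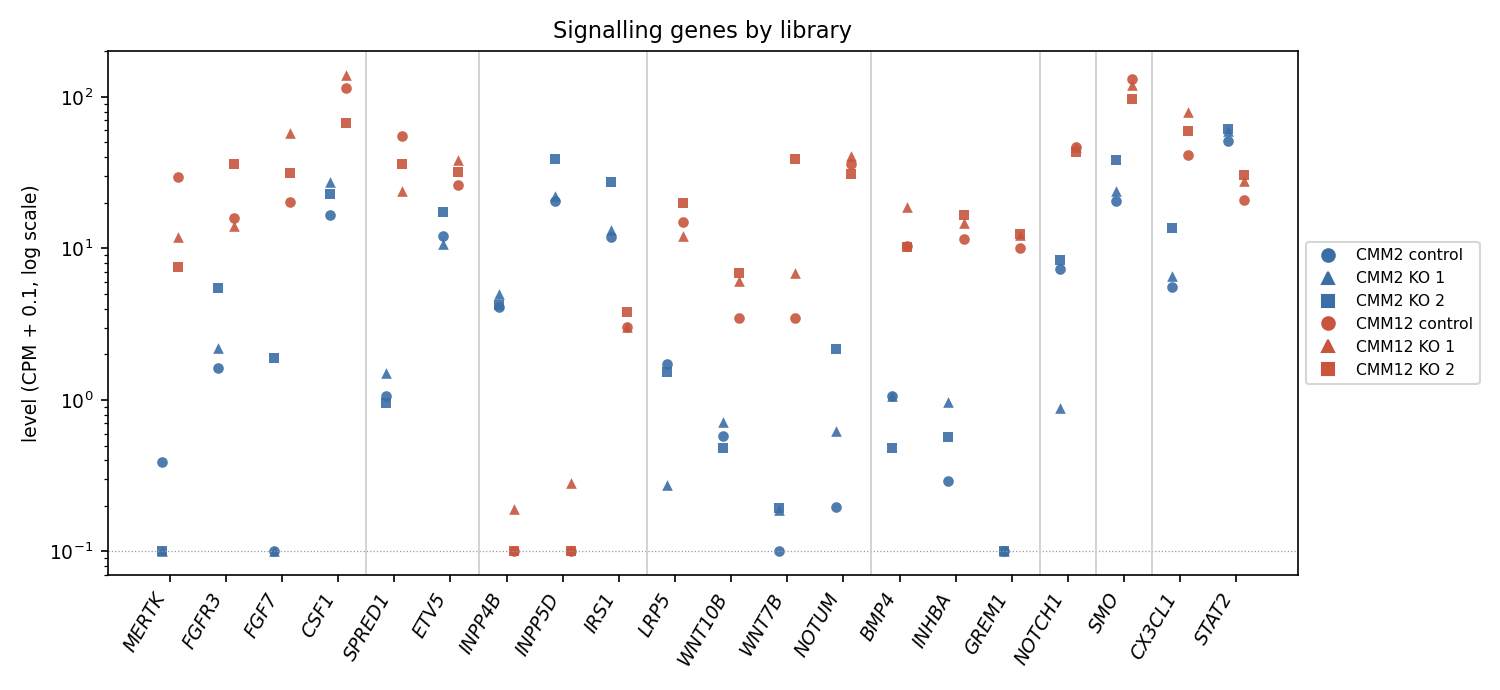
Level in each library (CPM + 0.1, log scale, vertical axis) of receptor, ligand, ERK, PI3K, Wnt, TGF-beta, Notch, hedgehog and immune signalling genes; colour gives the line and symbol the control, KO 1 and KO 2, and the dotted line marks 0 counts. INPP4B, INPP5D, IRS1 and STAT2 lie higher in CMM2, and the other genes shown lie higher in CMM12.

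More Wnt, TGF-beta, Notch and hedgehog genes were called higher in CMM12 than lower. Of 30 tested Wnt genes, 13 were higher in CMM12 and 1 was lower (43.3% and 3.3%), with a median of 1.60 and of 1.43 with genes at 0 set to their bound, with 6 higher and 1 lower among the 20 read in both lines (30% and 5%, median 0.98). Of the ligands, WNT7B stood at 0, 0.0874 and 0.0946 CPM in CMM2 and 3.37, 6.75 and 38.8 CPM in CMM12, a CMM12 to CMM2 ratio of 252 (95% interval 69.5 to 2089, edgeR adjusted p 0.00236, and a ratio of 81.4 without CMM12 KO 2), and WNT10B at 0.478, 0.611 and 0.378 CPM in CMM2 and 3.37, 6.02 and 6.75 CPM in CMM12 (log2 difference 3.38, SE 0.48, edgeR adjusted p 0.00369). CMM12 KO 2 was the highest library for both. LRP5, a co-receptor for Wnt ligands, stood at 1.62, 0.175 and 1.42 CPM in CMM2 and 14.8, 12.03 and 19.9 CPM in CMM12 (log2 difference 3.91, SE 0.63, edgeR adjusted p 0.00573). NOTUM, a secreted enzyme that inactivates Wnt ligands and is induced by the pathway, stood at 0.0955, 0.524 and 2.08 CPM in CMM2 and 35.7, 40.7 and 31.03 CPM in CMM12 (log2 difference 5.42, SE 0.66, edgeR adjusted p 0.00223, and a difference of 4.79 without the CMM2 control, 6.75 without CMM2 KO 2 and 4.79 without the CMM12 control). For LRP5 and NOTUM each CMM12 library lay above all CMM2 libraries.

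Of 33 tested TGF-beta and BMP genes, 10 were higher in CMM12 and 1 was lower (30.3% and 3.0%, median 0.82), with 6 higher and 1 lower among the 26 read in both lines (23.1% and 3.8%, median 0.47). The ligand genes INHBA and BMP4, for an activin subunit and a bone morphogenetic protein, stood at 0.191, 0.874 and 0.473 CPM in CMM2 and 11.4, 14.7 and 16.4 CPM in CMM12 and at 0.955, 0.961 and 0.378 CPM in CMM2 and 10.3, 18.7 and 10.1 CPM in CMM12. Both were higher in every CMM12 library, INHBA by a log2 difference of 4.82 (SE 0.43, edgeR adjusted p 8.5e-04) and BMP4 by 4.05 (SE 0.50, edgeR adjusted p 0.00223). GREM1, a secreted antagonist of BMP ligands, had 0 counts in every CMM2 library and 9.92, 12.1 and 12.4 CPM in CMM12 and was at least 34.6-fold higher. The ligand TGFB1 was not called (log2 0.22, SE 0.39). Its co-receptor ENG was the member called lower, at 85.01, 74.2 and 127 CPM in CMM2 and 22.8, 0 and 0.196 CPM in CMM12 (log2 difference −5.47, SE 1.40, edgeR adjusted p 0.0273, and a difference of −9.89 without the CMM2 control, −4.83 without CMM2 KO 2, −9.89 without the CMM12 control, −4.14 without CMM12 KO 1 and −4.29 without CMM12 KO 2), and the edgeR adjusted p was 0.0723 without CMM2 KO 1, 0.0813 without CMM12 KO 1 and 0.119 without CMM12 KO 2.

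Notch and hedgehog genes numbered 13 tested members each. Of the Notch genes 4 were higher in CMM12 and 0 lower (30.8% and 0%, median 0.82), with 2 higher and 0 lower among the 10 read in both lines (20% and 0%, median 0.71), with 75% of that list annotated. Hedgehog genes gave 5 higher and 1 lower (38.5% and 7.7%, median 0.39), with 4 higher and 1 lower among the 11 read in both lines (36.4% and 9.1%, median 0.39). NOTCH1, a receptor of the pathway, stood at 7.16, 0.786 and 8.23 CPM in CMM2 and 46.5, 46.8 and 43.4 CPM in CMM12 (log2 difference 3.11, SE 0.65, edgeR adjusted p 0.0135, and a difference of 4.01 without CMM2 KO 2), while NOTCH2, its relative, was not called (log2 −0.40, SE 0.31). SMO, the signal transducer of the hedgehog pathway, stood at 20.4, 23.7 and 38.4 CPM in CMM2 and 131, 119.8 and 96.1 CPM in CMM12 (log2 difference 2.09, SE 0.27, edgeR adjusted p 0.00273). Every CMM12 library was above every CMM2 library for NOTCH1 and SMO. In the YAP-TEAD list, 3 of 22 tested members were higher and 2 lower (13.6% and 9.1%, median 0.12), with 2 higher and 2 lower among the 20 read in both lines (10% and 10%, median −0.03), shares close to those of all genes. VGLL3, a TEAD cofactor, was higher at 0.287, 0 and 0.473 CPM in CMM2 and 37.02, 19.6 and 6.27 CPM in CMM12 (log2 difference 6.22, SE 0.81, edgeR adjusted p 0.00275, and a difference of 7.44 without CMM2 KO 2), and CCN1, a secreted target of the pathway, was lower at 271, 298 and 231 CPM in CMM2 and 159, 96.8 and 72.4 CPM in CMM12 (log2 difference −1.35, SE 0.24, edgeR adjusted p 0.00797).

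Interferon response genes were called mostly toward CMM2, and inflammatory mediators in both directions. Of 17 tested inflammatory mediators, 5 were higher in CMM12 and 2 lower (29.4% and 11.8%, median 1.14), with 2 higher and 2 lower among the 12 read in both lines (16.7% and 16.7%, median 0.46). CX3CL1, the membrane-bound chemokine fractalkine, stood at 5.44, 6.46 and 13.4 CPM in CMM2 and 41.4, 79.9 and 59.03 CPM in CMM12 (log2 difference 2.84, SE 0.31, edgeR adjusted p 0.00161). Of 27 tested interferon response genes, 7 were lower in CMM12 and 2 higher (25.9% and 7.4%, median −0.47), with 2 higher and 7 lower among the 24 read in both lines (8.3% and 29.2%, median −0.49). STAT2, a transcription factor that carries the type I interferon signal, stood at 51.2, 59.3 and 60.8 CPM in CMM2 and 20.8, 27.9 and 30.3 CPM in CMM12 (log2 difference −1.13, SE 0.17, edgeR adjusted p 0.00439). IRF1, a factor induced by interferon, went the other way, at 12.99, 13.8 and 9.18 CPM in CMM2 and 27.4, 45.04 and 41.2 CPM in CMM12 (log2 difference 1.63, SE 0.27, edgeR adjusted p 0.00606). No library of one line overlapped the other line for CX3CL1, STAT2 or IRF1. Of the interferon calls, only 2 held in all 6 fits that left out 1 library. They were STAT2 and IRF1, which went opposite ways. Among 12 tested antigen presentation genes, 1 was higher and 1 lower (8.3% and 8.3%), and the sign of the list's median depended on the scaling (−0.05 with the main factors and 0.02 with library totals alone). Canine histocompatibility genes resemble one another, and no value of one is given for that reason.

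Cell cycle and tumour suppressor genes were called in both directions. Of 28 tested members, 6 were lower in CMM12 and 4 higher (21.4% and 14.3%, median 0.10). CDKN1A, the p53-induced inhibitor p21, stood at 58.1, 91.1 and 83.5 CPM in CMM2 and 2.59, 11.7 and 14.2 CPM in CMM12 (log2 difference −3.25, SE 0.36, edgeR adjusted p 0.00168). MDM2, the p53 ubiquitin ligase and itself a p53 target, stood at 119, 139.8 and 127 CPM in CMM2 and 55.1, 50.9 and 56.6 CPM in CMM12 (log2 difference −1.25, SE 0.15, edgeR adjusted p 0.00218). Both were lower in every CMM12 library. RB1, the retinoblastoma protein that holds back S phase, was lower at 58.9, 56.5 and 91.2 CPM in CMM2 and 19.6, 32.2 and 21.3 CPM in CMM12 (log2 difference −1.50, SE 0.25, edgeR adjusted p 0.00634), as was CDK4, a kinase that inactivates it, at 499, 513 and 443 CPM in CMM2 and 258, 263 and 247 CPM in CMM12 (log2 difference −0.92, SE 0.15, edgeR adjusted p 0.00563). CCNE1, a cyclin of S-phase entry, was higher in CMM12 at 32.9, 39.8 and 39.3 CPM in CMM2 and 79.8, 77.7 and 76.9 CPM in CMM12 (log2 difference 1.07, SE 0.16, edgeR adjusted p 0.00418). MTAP, a methionine salvage enzyme often lost in tumours, was also higher, at 28.8, 24.2 and 21.1 CPM in CMM2 and 93.7, 107 and 99.95 CPM in CMM12 (log2 difference 2.03, SE 0.18, edgeR adjusted p 8.3e-04). For MDM2, CDK4, CCNE1 and MTAP the libraries within a line lay close together. Of 8 tested oncofetal genes, 1 was lower in CMM12 and 0 higher (12.5% and 0%, median −0.18), beside 11.2% and 14.5% of all tested genes. The called member, IGF2BP1, an RNA-binding protein of fetal tissue, stood at 59.1, 37.4 and 33.97 CPM in CMM2 and 10.2, 0.0912 and 0.0979 CPM in CMM12 (log2 difference −5.02, SE 0.99, edgeR adjusted p 0.0111, and a difference of −8.40 without the CMM2 control, −8.39 without the CMM12 control, −4.17 without CMM12 KO 1 and −4.26 without CMM12 KO 2). For IGF2BP1 the edgeR adjusted p was 0.0508 without CMM12 KO 2.

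In metabolism, the oxidative phosphorylation list held the highest share of lower calls among the 34 lists. Of 35 tested members, 14 were lower in CMM12 and 5 higher (40% and 14.3%, median −0.42). No lower call among them reached 2 on the log2 scale. The mitochondrial isocitrate dehydrogenase IDH2 stood at 232, 233 and 223 CPM in CMM2 and 115, 98.7 and 84.7 CPM in CMM12 (log2 difference −1.21, SE 0.16, edgeR adjusted p 0.00275). The higher calls held parts of complex I and complex II. SDHA, the flavoprotein of complex II, stood at 217, 194 and 225 CPM in CMM2 and 505, 518 and 416 CPM in CMM12 (log2 difference 1.18, SE 0.16, edgeR adjusted p 0.00333), and its membrane anchor SDHC at 77.3, 75.6 and 76.4 CPM in CMM2 and 214, 237 and 174 CPM in CMM12 (log2 difference 1.45, SE 0.17, edgeR adjusted p 0.00200). NDUFB5, a subunit of complex I, stood at 51.2, 42.1 and 44.3 CPM in CMM2 and 128, 105 and 130.5 CPM in CMM12 (log2 difference 1.40, SE 0.16, edgeR adjusted p 0.00181). Every CMM12 library lay above every CMM2 library for these 3 subunits. SDHC lies in a run of 25 neighbouring genes of which 20 were called higher in CMM12. PPARGC1B, a coactivator of mitochondrial genes, was not called (log2 0.04, SE 0.27).

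Cholesterol and fatty acid genes were also called mostly toward CMM2. Of 22 tested cholesterol synthesis genes, 7 were lower in CMM12 and 1 was higher (31.8% and 4.5%, median −0.59). FDPS, which makes farnesyl diphosphate, stood at 114, 139.8 and 152 CPM in CMM2 and 69.04, 61.1 and 67.7 CPM in CMM12 (log2 difference −1.03, SE 0.16, edgeR adjusted p 0.00557). SREBF2, the transcription factor that drives these enzymes, was lower as well (log2 difference −1.54, SE 0.28, edgeR adjusted p 0.00886), and the edgeR adjusted p was 0.0509 without CMM12 KO 2. The lines did not overlap for FDPS and SREBF2. Of 32 tested fatty acid and lipid handling genes, 9 were lower and 2 higher (28.1% and 6.2%, median −0.23). ACSL5, which activates long-chain fatty acids, stood at 76.7, 88.4 and 101 CPM in CMM2 and 1.64, 1.19 and 3.23 CPM in CMM12 (log2 difference −5.46, SE 0.35, edgeR adjusted p 3.0e-04). FABP3, a fatty acid carrier, was lower at 23.1, 27.3 and 58.7 CPM in CMM2 and 7.34, 3.74 and 2.74 CPM in CMM12 (log2 difference −3.02, SE 0.52, edgeR adjusted p 0.00699, and a difference of −3.72 without the CMM2 control and −3.72 without the CMM12 control). ACADL, a mitochondrial enzyme of fatty acid oxidation, was higher at 0.573, 0.175 and 0 CPM in CMM2 and 14.1, 7.57 and 11.8 CPM in CMM12 (log2 difference 5.59, SE 0.67, edgeR adjusted p 0.00218, and a difference of 6.58 without the CMM2 control and 6.58 without the CMM12 control). FABP3 and ACSL5 were low in all 3 CMM12 libraries, and ACADL had at most 6 counts in any CMM2 library.

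Glycolysis and hypoxia genes showed no common direction. Of 34 tested members, 6 were higher in CMM12 and 5 lower (17.6% and 14.7%), and the sign of the list's median depended on the scaling (−0.03 with the main factors, 0.05 with library totals alone and 0.10 on TPM). ENO2, an enolase, stood at 44.99, 62.5 and 54.8 CPM in CMM2 and 13.5, 11.7 and 7.24 CPM in CMM12 (log2 difference −2.33, SE 0.28, edgeR adjusted p 0.00223), and the hypoxia-induced peptide hormone gene ADM at 494, 467 and 219.5 CPM in CMM2 and 86.3, 65.4 and 82.7 CPM in CMM12 (log2 difference −2.31, SE 0.29, edgeR adjusted p 0.00246). P4HA2, a collagen prolyl hydroxylase, was higher at 143, 193 and 239.8 CPM in CMM2 and 592, 633 and 723 CPM in CMM12 (log2 difference 1.78, SE 0.18, edgeR adjusted p 0.00124). Like PDLIM4 and IRF1 it lies in a run of 25 neighbouring genes of which 17 were called higher in CMM12. The glucose transporter SLC2A1 was not called (log2 −0.60, SE 0.19). These values show opposite directions for genes of 1 list, with no overlap between the lines for ENO2, ADM and P4HA2.

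Serine and amino acid genes were called in both directions. Of 17 tested serine and one-carbon genes, 4 were lower in CMM12 and 0 higher (23.5% and 0%, median −0.17). SHMT2, the mitochondrial enzyme that splits serine to glycine and a one-carbon unit, stood at 984, 1176 and 913 CPM in CMM2 and 291, 280.3 and 239 CPM in CMM12 (log2 difference −1.92, SE 0.18, edgeR adjusted p 9.3e-04). PSAT1, an enzyme of serine synthesis, was not called (log2 −0.27, SE 0.21). Of 23 tested amino acid genes, 4 were lower and 3 higher (17.4% and 13%, median 0.09). PYCR1, which makes proline, stood at 32.1, 54.8 and 56.4 CPM in CMM2 and 179, 133 and 151 CPM in CMM12 (log2 difference 1.72, SE 0.25, edgeR adjusted p 0.00396), and SLC38A2, a transporter of small neutral amino acids, at 59.5, 53.1 and 46.6 CPM in CMM2 and 189, 122 and 198 CPM in CMM12 (log2 difference 1.68, SE 0.21, edgeR adjusted p 0.00236). Both were higher in every CMM12 library. In the list of redox, detoxification and retinoid genes, 3 of 28 tested members were higher and 1 was lower (10.7% and 3.6%, median 0.22), with 2 higher and 1 lower among the 23 read in both lines (8.7% and 4.3%, median 0.12). CYP1B1, a cytochrome P450 of steroid and retinoid metabolism, stood at 0, 0.0874 and 0.189 CPM in CMM2 and 103, 7.84 and 25.3 CPM in CMM12, a CMM12 to CMM2 ratio of 507 (95% interval 173 to 2461, edgeR adjusted p 0.00156, and a ratio of 1026 without CMM2 KO 2 and 176 without the CMM12 control). GSTO1, a glutathione transferase, was lower at 177, 156 and 179 CPM in CMM2 and 83.5, 93.3 and 78.5 CPM in CMM12 (log2 difference −1.0, SE 0.16, edgeR adjusted p 0.00493).

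**Figure D5:**
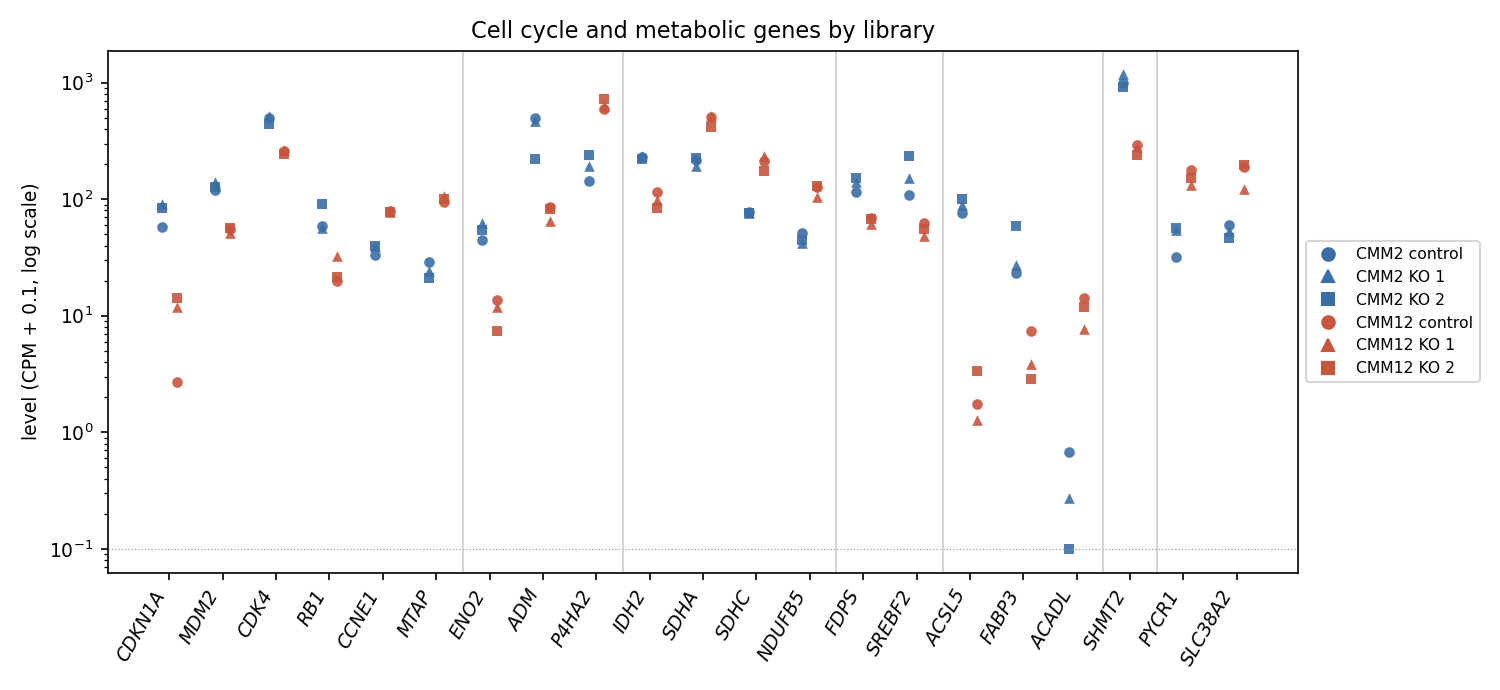
Level in each library (CPM + 0.1, log scale, vertical axis) of cell cycle, hypoxia, mitochondrial, lipid and amino acid genes; colour gives the line and symbol the control, KO 1 and KO 2, and the dotted line marks 0 counts. CDKN1A, MDM2, SHMT2 and ACSL5 lie lower in every CMM12 library than in any CMM2 library, and SDHA, SDHC, NDUFB5, PYCR1 and SLC38A2 lie higher.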

How the data were processed

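The authors deposited expected counts per gene without scaling across libraries, as the headers name them, and a second table of TPM values, which correct for transcript length within a library. The build CanFam3.1, RSEM 1.3.3 and STAR 2.7.3a are listed by the submitters' processing notes. Whether counting used strand is not stated by any source used here, so overlapping and antisense genes, and near-identical copies, cannot be told apart.

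Counts were rounded (3.22% to 3.63% of values changed). Groups came from the titles and genotypes. Genes with at least 10 counts in 1 library were fitted with edgeR 4.0.16 in R 4.3.3 (TMM factors, glmQLFit and glmQLFTest, genotype plus line, 3 residual degrees of freedom), with Benjamini-Hochberg adjustment over all 12320 genes at 0.05. A line-by-genotype model (2 residual degrees of freedom) tested the difference between genotypes. DESeq2 1.42.0, limma 3.58.1 with a trend on log2(TPM + 1), other scalings, filters and models and the omission of each library were alternatives. Folds against a line at 0 take the lowest library of the other line over a floor of 3 counts per library, which is 0.259 to 0.294 CPM. Libraries of the same line differed beyond sampling noise in every pair, with 14.5 to 59.3 as the chi-square over its degrees of freedom.

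The comparison and the 34 gene lists were chosen with earlier results of these data known. The genes named were PDPN, the 12 largest called differences in each direction (mean of at least 1 CPM, lines not overlapping), the 10 most abundant genes read in 1 line only in each direction, up to 6 called members with the largest difference and the first 3 members of each list, and all melanocyte regulators and cell type markers. Members were a choice within that set, and some genes are not reported here. Gene order came from the RefSeq assembly UU_Cfam_GSD_1.0, used for neighbourhood only.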

Additional observations from a re-analysis of the deposited data

How the results depend on the processing

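edgeR called 3172 genes between the lines. Counts from 2938 to 3946 came from DESeq2 (3946), the other scalings, filters, spread estimates and models on all libraries, and limma on log2(TPM + 1) or log2(TPM + 0.1), all within 1.5 times of the main count, as was limma with no filter (2419). The KO libraries alone gave 1682 calls, and leaving out 1 library gave 1498 to 3080; without a line's control the genotype term absorbs the other control, so fewer samples bear on the difference. The share of called genes higher in CMM12 was 56.4% by counts, 63.9% with library totals alone, 68.2% on log2(TPM + 1), 69.0% on log2(TPM + 0.1) and 70.9% with no TPM filter. For the difference between genotypes, where edgeR called 0, DESeq2 called 22 (2 higher and 20 lower), and leaving out 1 KO library gave 0 to 1; no fit is possible without a control. Among named genes, signs reversed only for 5 that were not called: without 1 library LUM ran from −1.223 to 6.682 (−1.223 in the KO libraries alone), CDH2 from −0.30 to 0.29, NOTCH2 from −0.78 to 0.016, PPARGC1B from −0.14 to 0.35 and TGFB1 from −0.058 to 0.68, and TGFB1 was −0.055 in the KO libraries alone. The replicate block fit, with control, KO 1 and KO 2 as blocks, called 2954. Across genes with a mean of at least 10 CPM, the KO 1 minus KO 2 difference in CMM2 correlated at 0.057 with that in CMM12. Deviations from the line means correlated between lines at 0.059 for KO 1 and 0.01 for KO 2. Whether KO libraries of the same number were made or handled alike was not tested. At these depths 3 counts are at most 0.294 CPM, and differences of genes near that level were not detectable with confidence. Each line rests on 3 libraries from 1 source, and the line, its culture and its handling cannot be told apart.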

Other observations

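Neuronal and contractile genes were not described above. Of 7 tested neuronal and glial genes, 2 were higher in CMM12 and 1 was lower (28.6% and 14.3%, median 1.65), with 1 higher and 1 lower among the 5 read in both lines (20% and 20%, median −0.06). The list had 24 of its 26 genes annotated. UCHL1, a neuronal ubiquitin hydrolase, stood at 61.5, 50.1 and 58.8 CPM in CMM2 and 178, 335 and 301 CPM in CMM12 (log2 difference 2.21, SE 0.24, edgeR adjusted p 0.00164), and its lines did not overlap. Of 13 tested contractile genes, 2 were lower in CMM12 and 0 higher (15.4% and 0%, median −0.32), beside 11.2% and 14.5% of all tested genes. Among the 12 read in both lines, 2 were lower and 0 higher (16.7% and 0%, median −0.37). Of the contractile calls, 0 held in all 6 fits that left out 1 library. MYOCD, the cofactor that drives smooth muscle genes, stood at 243, 282 and 196 CPM in CMM2 and 53.6, 137 and 63.5 CPM in CMM12 (log2 difference −1.56, SE 0.34, edgeR adjusted p 0.0161), and the edgeR adjusted p was 0.0805 without the CMM2 control, 0.0707 without CMM2 KO 1, 0.0772 without the CMM12 control and 0.0587 without CMM12 KO 2.

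Differences were also taken along the RefSeq gene order. Of 10810 tested symbols, 10513 (97.3%) were placed in that order, and the median log2 difference was taken in 9577 windows of 25 tested genes. The windows' medians had a 5th percentile of −0.61 and a 95th percentile of 0.76. The windows described here were picked as the most extreme after their values were seen, and overlapping windows share genes. In the window from ALDH9A1 to F11R, which holds SDHC and ADAMTS4, 20 of 25 genes were called higher in CMM12 and 1 lower (median 1.51). From CSNK1G3 to GDF9, with PDLIM4, P4HA2 and IRF1, 17 were called higher and 0 lower (median 1.46). From FXR1 to MAGEF1 20 were called higher and 0 lower (median 1.38), and from TRIO to CEP72 19 were called higher and 0 lower (median 1.38).

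In the lowest windows, from HTR2A to SUGT1, with KBTBD6, 19 of 25 genes were called lower in CMM12 and 0 higher (median −1.18). From PRKDC to ASPH, with SNAI2, 17 were called lower and 1 higher (median −1.07). From SORD to AP4E1 15 were called lower (median −1.26), and the 1 gene called higher there was FGF7. From SNX16 to DPY19L4, with ESRP1, 11 were called lower and 1 higher (median −1.24). No reference for genes out of order was computed, and what these windows rest on was not tested.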
